A study of Rattus norvegicus with 2 samples.

Results

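The counts of the neuron-enriched miRNAs miR-124, miR-128, miR-137 and miR-138 were compared between hippocampal small RNA of rats after status epilepticus (SE, a seizure that does not end by itself) and of control rats. Members were all entries of the deposited table named miR-124, miR-128, miR-137, miR-138 or miR-9, with any letter, copy or arm suffix. They were taken by name alone, not by their counts, though the names were chosen with earlier results of these data known. This gave 9 of the 390 miRNAs of the table, of which 328 are known rat miRNAs and 62 were predicted from the reads. They are rno-miR-124-3p, rno-miR-124-5p, rno-miR-128-3p, rno-miR-128-2-5p, rno-miR-137-3p, rno-miR-137-5p, rno-miR-138-5p, rno-miR-138-1-3p and rno-miR-138-2-3p. No entry was named miR-9 or miR-128-1-5p, so that these were not analysed here.

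The Experimental group held Wistar rats of 5 months whose right amygdala was stimulated in its lateral nucleus for 20 min to bring on SE, and for longer in animals that had not yet reached it. The Control group held Wistar rats of 5 months with sham stimulation, which carried the same implanted electrode and were handled alike without current. Both groups had the same anaesthesia, surgery and penicillin, and were perfused with saline. The left hippocampus, on the side opposite to the electrode, was taken 24 hours after SE, and RNA was pooled within each group into 1 library, called the SE library and the sham library below. The study kept 6 rats per group, and the number in each pool is not given in the sources used here. The animals of a pool cannot be told apart, so no difference below has a replicate check. In such tissue a change in the number of cells of a type and a change in the RNA per cell cannot be told apart either.

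A miRNA is cut from a hairpin transcript as a 5p and a 3p arm, 1 of which usually accumulates while the other is mostly degraded. The retained arm pairs with messenger RNAs through its seed, bases 2 to 8, and lowers their translation and stability. MiR-124 marks neurons, where it holds down transcripts of other cell types and the splicing repressor Ptbp1. MiR-128 is known to restrain neuronal excitability, miR-137 acts in neuronal maturation and at the presynaptic terminal, and miR-138 limits the size of dendritic spines in hippocampal neurons.

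Mature sequences from RefSeq (GRCr8) matched 7 of the 9 members, all but miR-124-3p and miR-124-5p. Those of the main arms of miR-128, miR-137 and miR-138 and of the miR-138 3p strands, which are compared below, are shown with the seed in capitals.
miR-128-3p: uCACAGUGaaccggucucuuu
miR-137-3p: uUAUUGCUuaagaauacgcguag
miR-138-5p: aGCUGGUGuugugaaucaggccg
miR-138-1-3p: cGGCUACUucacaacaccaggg
miR-138-2-3p: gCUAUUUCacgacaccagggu
No seed was shared between the 7 members. They were 21 to 23 bases long, with a GC content from 34.8% (miR-137-3p) to 61.9% (miR-128-2-5p). The 3p arms of miR-138 shared a run of 9 bases and differed by an edit distance of 5, and every other member was at least 7 edits from any other miRNA of the table with a sequence. The seed of miR-128-3p also occurs 1 base further along in miR-27a-3p and miR-27b-3p, where it is not at bases 2 to 8.

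The hairpins show which arms can be assigned to a single gene. Both arms are in capitals, in the order 5p and 3p.
Mir128-2: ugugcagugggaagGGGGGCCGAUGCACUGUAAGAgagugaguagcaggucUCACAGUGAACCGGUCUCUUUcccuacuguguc
Mir128-1: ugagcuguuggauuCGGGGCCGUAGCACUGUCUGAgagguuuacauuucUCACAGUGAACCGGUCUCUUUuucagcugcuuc
Mir138-1: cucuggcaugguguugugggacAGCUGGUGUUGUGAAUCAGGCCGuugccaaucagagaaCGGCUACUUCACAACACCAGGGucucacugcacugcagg
Mir138-2: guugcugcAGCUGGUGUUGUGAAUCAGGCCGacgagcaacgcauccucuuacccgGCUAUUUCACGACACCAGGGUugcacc
Mir137: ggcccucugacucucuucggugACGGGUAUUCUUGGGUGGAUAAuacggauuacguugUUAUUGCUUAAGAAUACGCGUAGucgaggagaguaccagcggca
In GRCr8, Mir128-2 lies at chr8:120963795-120963878 on the minus strand, within the span of the protein-coding gene Arpp21. Mir128-1 lies at chr13:42251884-42251965 on the plus strand, within the span of R3hdm1. Mir138-1 lies at chr8:131178434-131178532 on the plus strand within the spans of long non-coding RNA genes, and Mir138-2 at chr19:10680133-10680214 on the minus strand within the span of Slc12a3. Mir137 lies at chr2:209165709-209165810 on the plus strand within the span of a long non-coding RNA gene. MiR-128-3p and miR-138-5p are thus each made by 2 genes and their counts are the sum over both, whereas miR-128-2-5p, miR-138-1-3p and miR-138-2-3p come from 1 gene each. For miR-124, the annotation lists the genes Mir124-1, Mir124-2 and Mir124-3 on chromosomes 15, 2 and 3.

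The counts of the table summed to 5678090 in the SE library and 6703056 in the sham library. Levels are given as counts per 1000000 counts of the table (CPM), so that 1 count was worth 0.176 CPM and 0.149 CPM. The let-7 and miR-98 rows took 82.5% of the counts in both libraries. The 9 members together took 272754 counts or 4.80% of the SE library and 389768 counts or 5.81% of the sham library. The 95% exact Clopper-Pearson intervals given below cover counting error only, since each group is a single pooled library. Reads copied by PCR are not independent molecules, so that the intervals may be too narrow even for that error. MiR-128-3p made up 90.9% of the members' counts in the sham library and 78.6% in the SE library. The share of miR-124-3p among the members was 7.31% and 18.5%, respectively. Without miR-128-3p, the other 8 members took 0.529% of the sham and 1.03% of the SE counts.

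**Figure D1:**
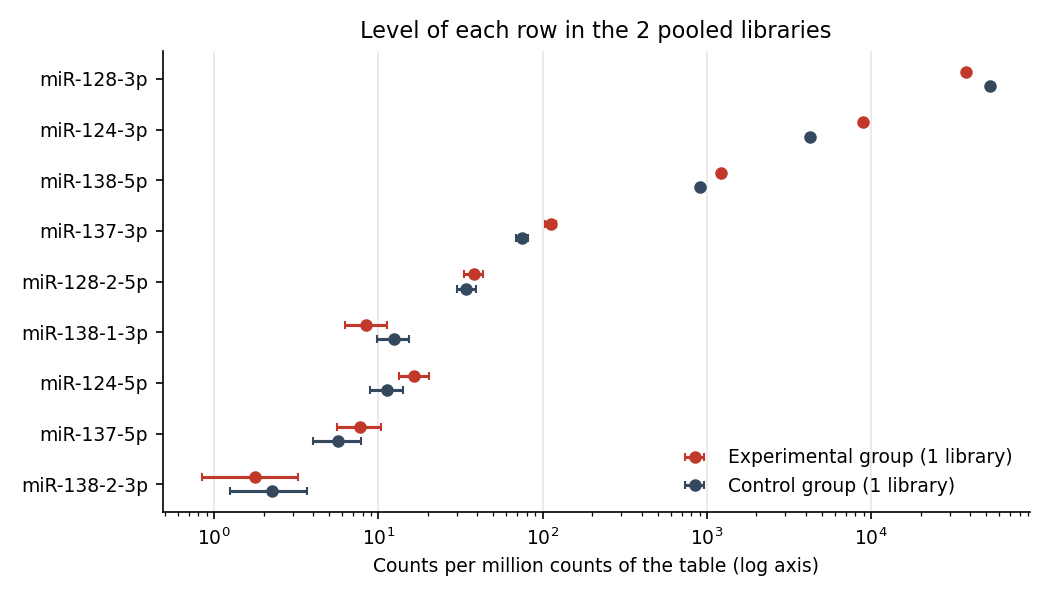
Counts per 1000000 counts of the table (log axis) of the 9 members in the Experimental (red, SE) and Control (dark, sham) library, with 95% exact intervals of counting error. Levels span in the sham library from 2.24 CPM for miR-138-2-3p to 52854 CPM for miR-128-3p.

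MiR-124-3p was counted 50380 times in the SE library and 28500 times in the sham library. These are 8873 CPM (8796 to 8950) and 4252 CPM (4203 to 4301), and it ranked 10 and 12 among all miRNAs. The level was 2.09-fold higher after SE, and the log2 ratio of SE to sham was 1.06, with a 95% exact interval from 1.04 to 1.08. Of the 77 miRNAs with at least 1000 counts in both libraries, whose median log2 ratio was 0.03, only miR-598-3p had a higher one. That set leaves out miRNAs with fewer counts in the sham library, such as miR-341 (4297 counts after SE, 975 after sham stimulation, log2 ratio 2.38). Of the 285 miRNAs with at least 30 counts in either library, 24 had a higher log2 ratio than miR-124-3p. With edgeR's TMM normalization the log2 ratio of miR-124-3p was 0.91 and with unscaled counts 0.82, so that it did not reach a doubling. MiR-124-5p, the minor arm, was counted 94 times after SE and 76 times after sham stimulation, or 16.6 CPM and 11.3 CPM. Its log2 ratio was 0.55, with an interval from 0.09 to 1.0, and the two-sided Fisher's exact test gave an adjusted p of 0.0332. That call was lost with TMM, DESeq2's size factors or unscaled counts. Both arms of miR-124 were thus higher in the SE library, and for the 5p arm the call rests on the scaling.

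MiR-128-3p was the most abundant member, with 214423 counts in the SE library and 354286 in the sham library. It ranked 5 in both, behind let-7 miRNAs alone. Its level was 37763 CPM after SE and 52854 CPM after sham stimulation, and the log2 ratio was -0.49 with an interval from -0.49 to -0.48. Its level was therefore 1.40-fold higher in the sham library, the opposite direction to miR-124-3p. Among the 77 abundant miRNAs its log2 ratio stood 75th from the top, above miR-219-5p and miR-129-2-3p. The 5p strand of Mir128-2, miR-128-2-5p, was counted 216 times after SE and 230 times after sham stimulation, or 38.0 CPM and 34.3 CPM. Its log2 ratio was 0.15, the interval ran from -0.13 to 0.42 and the adjusted p of Fisher's exact test was 0.409, so that no difference was detectable at this depth. The sign turned with unscaled counts (-0.091).

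MiR-138-5p reached 6906 counts in the SE library and 6038 in the sham library. The level of 1216 CPM after SE was 1.35-fold that after sham stimulation, 901 CPM. The log2 ratio was 0.43, with an interval from 0.38 to 0.48 and an adjusted Fisher's exact p of 3.02e-64, and it ranged from 0.19 to 0.46 over the scalings. After a linear correction for mature length and GC content it was 0.20. The 3p strands, which name the gene they come from, had lower levels after SE than after sham stimulation. MiR-138-1-3p was counted 48 and 83 times, or 8.45 CPM and 12.4 CPM. Its log2 ratio was -0.55, the interval ran from -1.09 to -0.02 and the adjusted Fisher's exact p was 0.0664. It thus missed the threshold with the sum of the table as scaling, and it passed with TMM, DESeq2's size factors and unscaled counts. MiR-138-2-3p, the rarest member, was counted 10 and 15 times. Its log2 ratio of -0.35 had an interval from -1.66 to 0.91, so that no difference was detectable at this depth.

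MiR-137-3p was counted 633 times after SE and 502 times after sham stimulation, or 111 CPM and 74.9 CPM. Its level was 1.49-fold higher in the SE library, with an adjusted Fisher's exact p of 1.39e-10. The log2 ratio was 0.57, with an interval from 0.40 to 0.75, and stayed between 0.33 and 0.61 over the scalings. MiR-137-5p was counted 44 and 38 times, with a log2 ratio of 0.45 and an interval from -0.21 to 1.12 (adjusted Fisher's exact p = 0.277). The values of both arms lay above those of the sham library, and only that of the 3p arm passed the test.

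**Figure D2:**
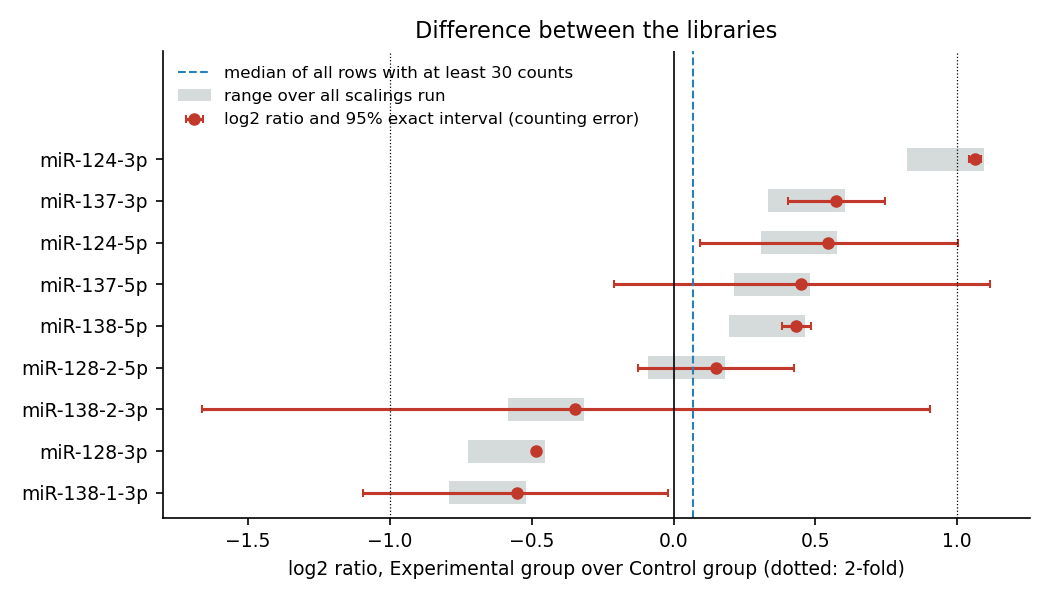
Log2 ratio of each member, Experimental over Control library (points), with 95% exact intervals of counting error and the range over all scalings run (grey bars). The dashed line is the median of all miRNAs with at least 30 counts (0.07) and the dotted lines mark a 2-fold difference. Only miR-124-3p lies beyond these, and its grey bar reaches down to 0.82.

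With at least 30 counts in either library, 8 of the 9 members and 285 of all 390 miRNAs could be counted. A log2 ratio above 1 was found in 1 of the 8 members, miR-124-3p, against 9.12% of the 285, and a ratio below -1 in 0 of the 8 against 2.11%. The interval lay above 0 for 4 of the 8 members (miR-124-3p, miR-124-5p, miR-137-3p and miR-138-5p), where 38.2% of the 285 did so. It lay below 0 for miR-128-3p and miR-138-1-3p, 2 of the 8, against 24.2%. The median log2 ratio was 0.44 over the 8 members and 0.07 over the 285. Relative to the table's sum, TMM shifted every log2 ratio by -0.15 and unscaled counts by -0.24, and with them intervals lay above 0 for 81 and 66 of the 285 and below 0 for 100 and 117, instead of 109 and 69. The Fisher's exact tests, adjusted over all 390 miRNAs by the Benjamini-Hochberg method, compare these libraries and not the conditions. When a coefficient of variation of 0.2 between libraries was assumed in edgeR's exact test, miR-124-3p had an adjusted p of 0.0788 (0.0105 unadjusted), and 0 of the 9 members passed.

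**Figure D3:**
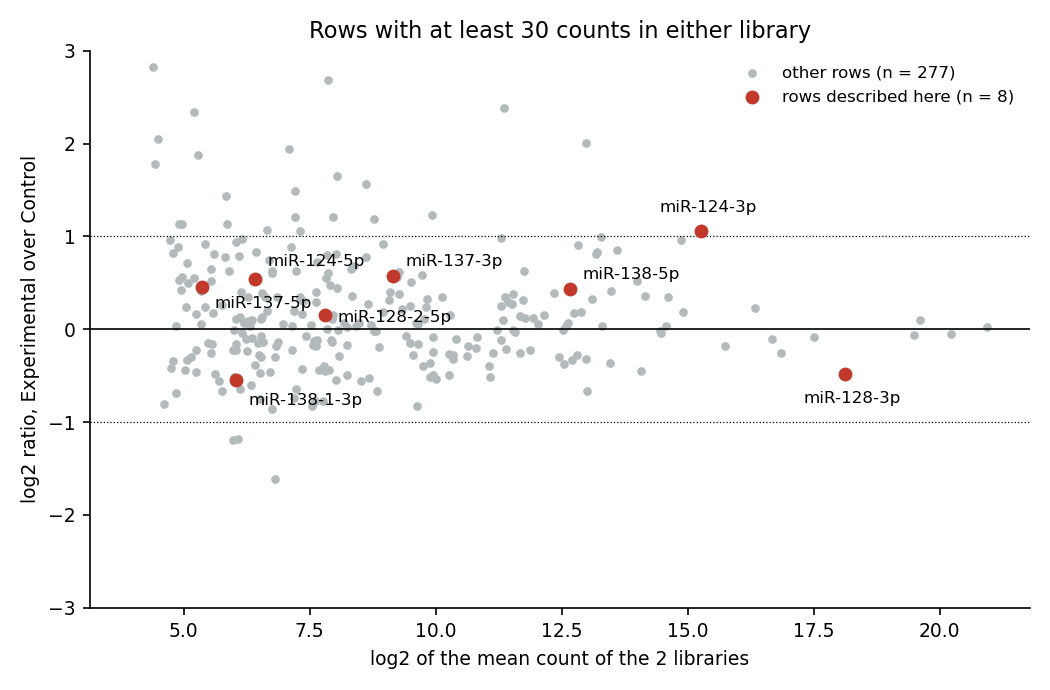
Log2 ratio (Experimental over Control) against the log2 mean count of the libraries for the miRNAs with at least 30 counts, with the 8 members in red and the other 277 in grey. MiR-124-3p stands at the upper and miR-128-3p at the lower edge of the abundant miRNAs. A total of 6 other miRNAs lie outside the plotted range of -3 to 3.

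The ratio of arms within a library does not depend on the scaling. For each count of miR-124-5p there were 536 counts of miR-124-3p in the SE library (438 to 663) and 375 in the sham library (300 to 476). The log2 odds ratio was 0.52, with a 95% Woolf interval from 0.08 to 0.95 and a Fisher's exact p of 0.0249. No sequence was matched for miR-124, so which of Mir124-1, Mir124-2 and Mir124-3 supply each arm was not checked. For each count of miR-128-2-5p there were 993 counts of miR-128-3p (869 to 1140) after SE and 1540 (1354 to 1761) after sham stimulation. Here the log2 odds ratio was -0.63, from -0.90 to -0.37, with a Fisher's exact p of 4.07e-06. The 3p arm also comes from Mir128-1, whereas the 5p strand counted here comes from Mir128-2 alone, as the hairpins above show. For miR-128 the ratio therefore sets the 3p output of a pair of genes against the 5p strand of 1, and is not a measure of arm balance within a hairpin.

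For miR-138 the 5p arm is the main one. It comes from Mir138-1 and Mir138-2, so that its ratio to a single 3p strand is not a measure of arm balance within a hairpin either. For each count of miR-138-1-3p there were 144 counts of miR-138-5p in the SE library (108 to 195) and 72.7 in the sham library (58.6 to 91.5), so that the intervals did not overlap. The log2 odds ratio was 0.98, from 0.47 to 1.5, with a Fisher's exact p of 0.000142. Against miR-138-2-3p the ratios were 691 and 403, and the log2 odds ratio of 0.78 ran from -0.38 to 1.93 (Fisher's exact p = 0.229). With both 3p strands summed, a sum chosen after the values were seen, it was 0.95, from 0.48 to 1.42. The 3p strands themselves stood at 4.80 counts of miR-138-1-3p for each count of miR-138-2-3p after SE and at 5.53 after sham stimulation. Their log2 odds ratio was -0.21, from -1.47 to 1.06, so that a shift between the strands of the Mir138 genes was not detectable at this depth. The arms of miR-137 stood at 14.4 and 13.2, with a log2 odds ratio of 0.12, from -0.53 to 0.77 (Fisher's exact p = 0.731).

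Adjusted over the 5 arm pairs, the p-values of Fisher's exact test were 0.0416 for miR-124, 2.03e-05 for miR-128 and 0.000356 for miR-138-5p against miR-138-1-3p. Among all known miRNAs, 73 pairs of arms reached 30 counts in each arm. Adjusted over these, a choice made after the values were seen, the p-values were 0.0433, 1.75e-05 and 0.000472. The interval for the more abundant arm relative to the other lay above 0 for 31.5% of the 73 pairs and for 2 of the 4 member pairs among them. It lay below 0 for 26.0% of the 73 and for 1 of the 4. With an assumed coefficient of variation of 0.2 on each count, all 5 member intervals included 0.

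**Figure D4:**
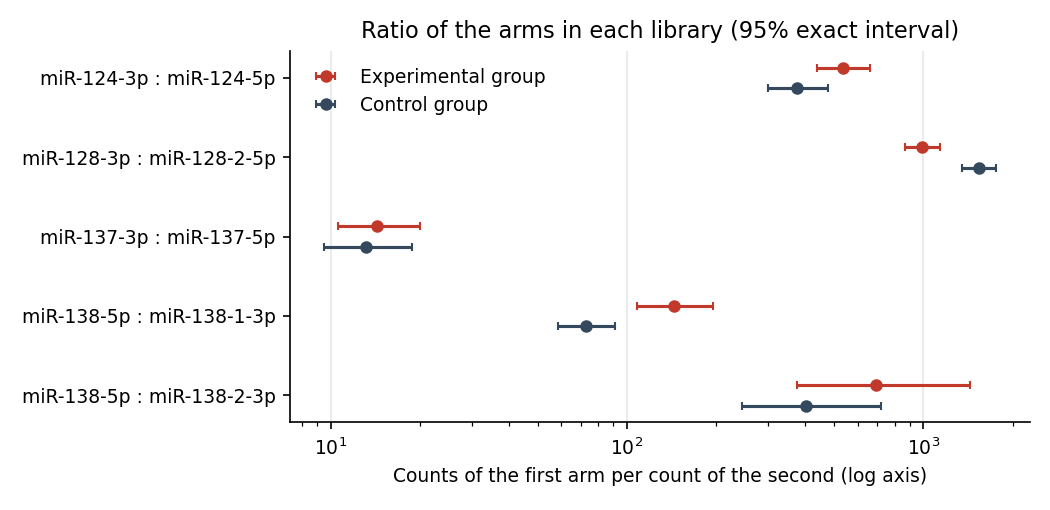
Counts of the first arm for each count of the second arm (log axis) in the Experimental (red) and Control (dark) library, with 95% exact intervals. The ratio of miR-138-5p to miR-138-1-3p was 144 and 72.7, and that of miR-128-3p to miR-128-2-5p was 993 and 1540.

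The main arms of the 4 miRNAs were also set against each other, in 6 pairs. For each count of miR-128-3p there were 0.0804 counts of miR-124-3p in the sham library (0.0795 to 0.0814) and 0.235 in the SE library (0.233 to 0.237). This ratio was 2.92-fold higher after SE, a log2 odds ratio of 1.55 with a Woolf interval from 1.52 to 1.57. It was the only one of the 6 whose interval still left out 0 with an assumed coefficient of variation of 0.2 on each count (0.42 to 2.68). MiR-128-3p was also lower after SE relative to miR-137-3p, with a log2 odds ratio of -1.06 (-1.23 to -0.89), and relative to miR-138-5p, with -0.92 (-0.97 to -0.87). MiR-124-3p was higher relative to miR-138-5p, by 0.63 (0.57 to 0.68) on the same scale, and relative to miR-137-3p, by 0.49 (0.32 to 0.66). For miR-137-3p over miR-138-5p the log2 odds ratio was 0.14 (-0.04 to 0.32), with a Fisher's exact p of 0.121 after adjustment over the 6 pairs, so that no difference in their balance was detectable. By level, miR-128-3p came first in both libraries, then miR-124-3p, miR-138-5p and miR-137-3p, and the counting intervals of neighbours in that order did not overlap.

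Likeness to other miRNAs was measured as the difference in log2 ratio, over 69 known miRNAs with at least 1000 counts in both libraries. With 2 libraries it rests on a single number for each miRNA. Nearest to miR-124-3p were miR-34c-5p (12579 counts after SE, 7462 after sham stimulation, log2 ratio 0.99) and miR-181d-5p (3144 and 1875 counts, 0.99). Nearest to miR-128-3p were miR-219-5p (1609 and 2712 counts, -0.51) and miR-101a-3p (13183 and 21207 counts, -0.45), and miR-138-1-3p had the same neighbours. For miR-138-5p and miR-137-5p they were miR-30d-5p (0.39) and miR-664-2-5p (0.38), and for miR-137-3p and miR-124-5p they were miR-146b-5p (0.63) and miR-30d-5p. MiR-128-2-5p lay nearest to miR-30a-5p and miR-143-3p, and miR-138-2-3p to miR-125a-5p and miR-125b-5p. The counting intervals of the minor strands were wide, such as -1.66 to 0.91 for miR-138-2-3p and -0.21 to 1.12 for miR-137-5p. Their neighbours are therefore uncertain.

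A list of 20 other miRNAs enriched in neurons had 37 entries in the table, 32 of them with at least 30 counts. Of these 32, 12 had an interval above 0 and 11 below 0, against 38.2% and 24.2% of the 285. A log2 ratio above 1 was found in 4 of the 32, against 9.12% of the 285, and one below -1 in 0, against 2.11%. The median log2 ratio was -0.02. Above 1 lay miR-153-3p (208 counts after SE, 64 after sham stimulation, log2 ratio 1.94), miR-134-5p, which limits dendritic spines (209 and 88 counts, 1.49), and both arms of the activity-induced miR-212 (1.21 for the 3p and 1.19 for the 5p arm). The lowest was miR-488-3p (69 and 148 counts, -0.86), followed by miR-129-1-3p (515 and 1081 counts, -0.83). MiR-129-2-3p, with the most counts of the list in the sham library, was counted 5709 and 10647 times (-0.66). The abundant miR-383-5p (7457 and 7715 counts, 0.19) and miR-485-5p (6760 and 7053 counts, 0.18) had intervals above 0. Summed over the list the level was 7200 CPM in the SE library and 7403 CPM in the sham library, with a log2 ratio of -0.04 (-0.06 to -0.02). Such a sum follows its most counted entries.

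Markers of other cells gave the following levels. Their counts of intervals stand beside shares of 38.2% above 0 and 24.2% below 0 over the 285 miRNAs. Oligodendrocyte miRNAs (miR-219 and miR-338) summed to 2011 CPM after SE and 2091 CPM after sham stimulation, with 1 of 5 intervals above 0 and 2 below. Those of microglia and leukocytes summed to 757 CPM and 512 CPM, with 2 of 5 intervals above 0 and 0 below. Of their counts miR-146b-5p alone gave 3908 of 4301 in the SE library and 2976 of 3431 in the sham library. The other interval above 0 was that of miR-150-3p (59 and 19 counts, log2 ratio 1.87). Those of miR-142-5p (0.007), miR-146a-5p (-0.28) and miR-150-5p (-0.52) included 0. Erythrocyte miRNAs summed to 39.4 CPM after SE and 17.8 CPM after sham stimulation, mostly miR-451-5p (196 and 100 counts), and those of vessels (miR-143 and miR-145) to 247 CPM and 221 CPM. Markers of liver and muscle summed to 336 CPM and 362 CPM, with miR-1-3p at 1022 and 1446 counts, miR-206-3p at 755 and 857, and miR-122-5p at 122 and 93. Of these lists miR-126, miR-155, miR-208, miR-223 and miR-486 were not analysed here. The part of other cells in the differences of the members was not tested.

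**Figure D5:**
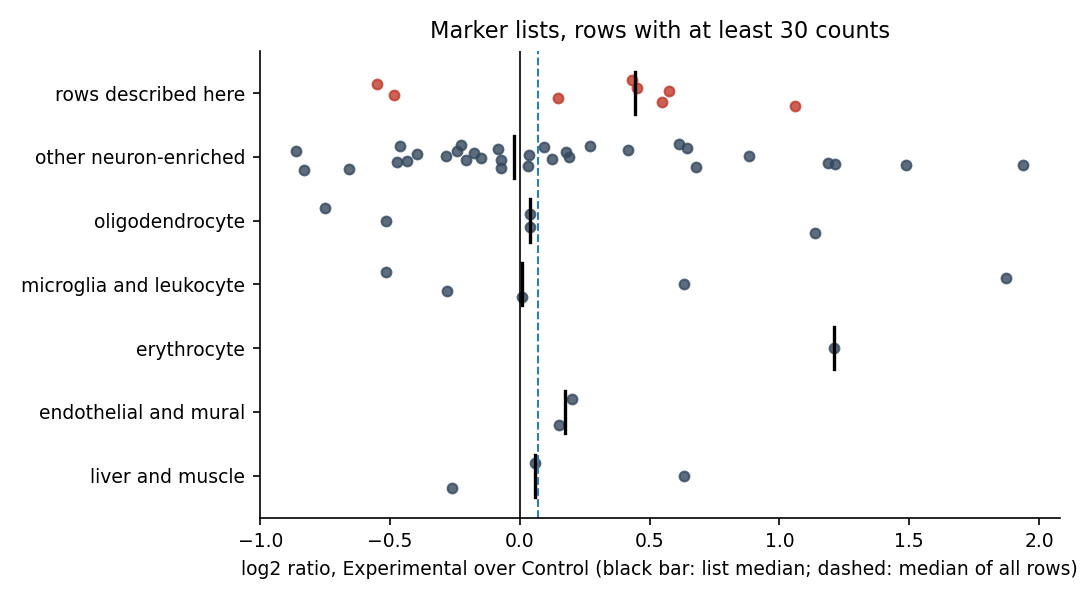
Log2 ratio (Experimental over Control) of the members and of each marker list, for miRNAs with at least 30 counts. Black bars are list medians (0.44 for the members, -0.02 for other neuron-enriched miRNAs) and the dashed line is the median of all 285 miRNAs (0.07).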

How the data were processed

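For each miRNA the authors deposited a raw read count in each of 2 pooled libraries sequenced on an Illumina instrument. Although the file's header mentions normalized signal and the labels describe cRNA labelling, all values are whole and sum to different totals. Per the study's methods, adaptor-ligated small RNA of 18 to 30 bases was kept after removal of low-quality and single-read sequences. Build rn5 is named in the submitters' processing notes, while the aligner and the miRBase release are not given in the sources used here. The 2 columns of deposited p-values hold the authors' own comparison and were not used.

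Counts were divided by the sum of the table in each library. Counts under 3 were set to 3 before a ratio was taken. Each miRNA was compared by a two-sided Fisher's exact test against the remaining counts, adjusted over all 390 miRNAs with a threshold of 0.05, and by the 95% exact Clopper-Pearson interval of the ratio. Arm ratios and ratios between members were compared by log2 odds ratios with Woolf intervals. Alternatives were the clean reads given by the study as totals, TMM, DESeq2's size factors, unscaled counts, the sum without let-7 and miR-98, the sum of known miRNAs (added after the data were seen), a pseudocount of 1, minimums of 100 or no counts, a log2 threshold of 2, a linear correction for mature length and GC content (fitted on 236 of 263 known miRNAs with at least 30 counts), and assumed coefficients of variation of 0.2 and 0.4. The members, lists and tests were chosen with earlier results of these data known. The text names all members, the marker lists, miRNAs holding a member's seed, and the 2 abundant miRNAs nearest to each member in log2 ratio. Mature and hairpin sequences are those of RefSeq in GRCr8, matched by name. Gene spans were taken from the same assembly. The test was run on simulated data with known changes. Scripts ran in R 4.3.3 with edgeR 4.0.16 and DESeq2 1.42.0, and in Python 3.11.15 with scipy 1.17.1, pandas 2.3.3 and matplotlib 3.10.9.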

Additional observations from a re-analysis of the deposited data

How the results depend on the processing

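No paired analysis was possible because a group is a single pooled library, and for the same reason no replicate could be left out. MiR-124-3p, miR-128-3p, miR-137-3p and miR-138-5p kept their direction and their side of the threshold under every scaling. A pseudocount of 1 and the correction for length and GC content change the ratio and have no test of their own. The former kept every member within its counting interval. The latter was not computed for miR-124-3p, miR-124-5p and miR-138-2-3p, and it turned no sign among the other members. It moved miR-128-3p to -0.39 and miR-138-5p to 0.20, and no other member with a corrected value beyond its counting interval. With TMM, DESeq2's size factors and unscaled counts in this order, miR-124-5p no longer passed (0.40, 0.49 and 0.31) and miR-138-1-3p did (-0.70, -0.61 and -0.79). The sign of miR-128-2-5p turned with unscaled counts (-0.091). The number of members more than 2-fold higher was 0 in place of 1 with TMM, with unscaled counts and with a log2 threshold of 2. With clean reads as totals, 1 member in place of 2 had an interval below 0. The sum of known miRNAs as total, chosen after the data were seen, changed no call of a member.

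Where edgeR's exact test was given a coefficient of variation of 0.2 or 0.4, none of the 5 members past the threshold passed, at log2 ratios of 1.06 (miR-124-3p), 0.55 (miR-124-5p), -0.49 (miR-128-3p), 0.57 (miR-137-3p) and 0.43 (miR-138-5p). Assumed on each count, a coefficient of variation of 0.2 gave intervals that include 0 for the arm ratios of 0.52 (miR-124), -0.63 (miR-128) and 0.98 (miR-138-5p to miR-138-1-3p), and for the log2 odds ratios of miR-124-3p to miR-137-3p (0.49) and to miR-138-5p (0.63) and of miR-128-3p to miR-137-3p (-1.06) and to miR-138-5p (-0.92). Depth limits the minor strands, of which miR-124-5p, miR-137-5p, miR-138-1-3p and miR-138-2-3p had fewer than 100 counts in each library.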

Other observations

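Of the miRNAs that hold the seed letters of miR-128-3p 1 base further along, miR-27b-3p was counted 753 times in the SE library and 1142 times in the sham library. Its log2 ratio was -0.36, with a 95% exact interval from -0.50 to -0.23. MiR-27a-3p was counted 259 and 220 times, and its log2 ratio of 0.47 ran from 0.21 to 0.74. Reads of these near-identical miRNAs could have been split between them by the authors' counting.

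Across 236 known miRNAs with at least 30 counts and a sequence, the log2 ratio had a Spearman rho of 0.31 with mature length and 0.20 with GC content, and of -0.085 with the mean level. These points share the same pair of libraries and are not independent. After the linear correction for length and GC content, the log2 ratio was -0.39 for miR-128-3p, 0.0051 for miR-128-2-5p, 0.70 for miR-137-3p, 0.49 for miR-137-5p, 0.20 for miR-138-5p and -0.74 for miR-138-1-3p. It was not computed for miR-138-2-3p, which had fewer than 30 counts. Nor was it computed for miR-124-3p and miR-124-5p, for which no sequence was matched.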
